A study of Mus musculus with 24 samples.

Results

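The comparison set out here is between cells from lung metastases carrying the hairpin shAsns-2 and cells from lung metastases carrying the control hairpin shRenilla. Its members are the 8 libraries so labelled, of 24 in the series: lung shAsns-2 A to D and lung shRenilla A to D. All 8 are 4T1-T, a mouse mammary carcinoma line. Per the labels, the cells had been taken from lung metastases, had passed selection in 6-thioguanine (6TG), had been infected with the hairpin and were kept in DMEM supplemented with non-essential amino acids. 6TG is a purine analogue that kills cells with an active Hprt salvage enzyme, so it is used to recover resistant tumor cells from tissue. Both groups carry a hairpin and both went through 6TG. shAsns-2 is directed at Asns, and shRenilla at a luciferase gene that mouse cells lack. The other 16 libraries are lung shAsns-1 and tumor shRenilla, shAsns-1 and shAsns-2, 4 each. They enter the model to estimate the spread, and tumor shAsns-2 and lung shAsns-1 are also set beside lung shAsns-2. Whether A to D stand for different mice, cultures or library preparations is not in the labels. The p-values thus cover only the spread among these libraries, which may be technical.

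Asns encodes asparagine synthetase, which makes asparagine from aspartate with glutamine as the nitrogen donor. When amino acids run short, or when unfolded protein collects in the endoplasmic reticulum, translation slows and the transcription factor ATF4 is made, and ATF4 induces Asns with other genes of amino acid synthesis and uptake. The unfolded protein response has further arms through ATF6 and XBP1, which induce chaperones of the endoplasmic reticulum such as Hspa5. Carcinoma cells of this line also make chemokines and metalloproteinases, which act on leukocytes and matrix around a tumor.

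RNA was extracted with Trizol, amplified into sequencing libraries by NuGEN Ovation RNAseq V2 and counted per gene symbol. The 8 lung libraries held 25912778 to 34342195 counts. A library of each group stood apart. On log2 CPM (counts scaled to library size) of the lung libraries, the first component held 39.2% of the variance and placed shRenilla B at 58 and the other 7 at -12.9 to -5.6. The second held 29.8% and placed shAsns-2 D at -47.6 and the other 7 at -4 to 16.8. Of 7978 genes whose mean log2 CPM was 3 or more, 343 lay at least 2-fold from the mean of their 3 group mates in shRenilla B (58 higher and 285 lower) and 121 in shAsns-2 D (94 higher and 27 lower). In each of the other 6 libraries 0 to 3 genes did. The weights that limma gave to libraries were 0.091 for shRenilla B, 0.171 for shAsns-2 D and 1.26 to 3.13 for the rest. The biological coefficient of variation was 14.9% over all 24 libraries, 11.4% without these 2, 18.5% over the 8 lung libraries alone and 6.7% over the 6 lung libraries without them.

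**Figure D1:**
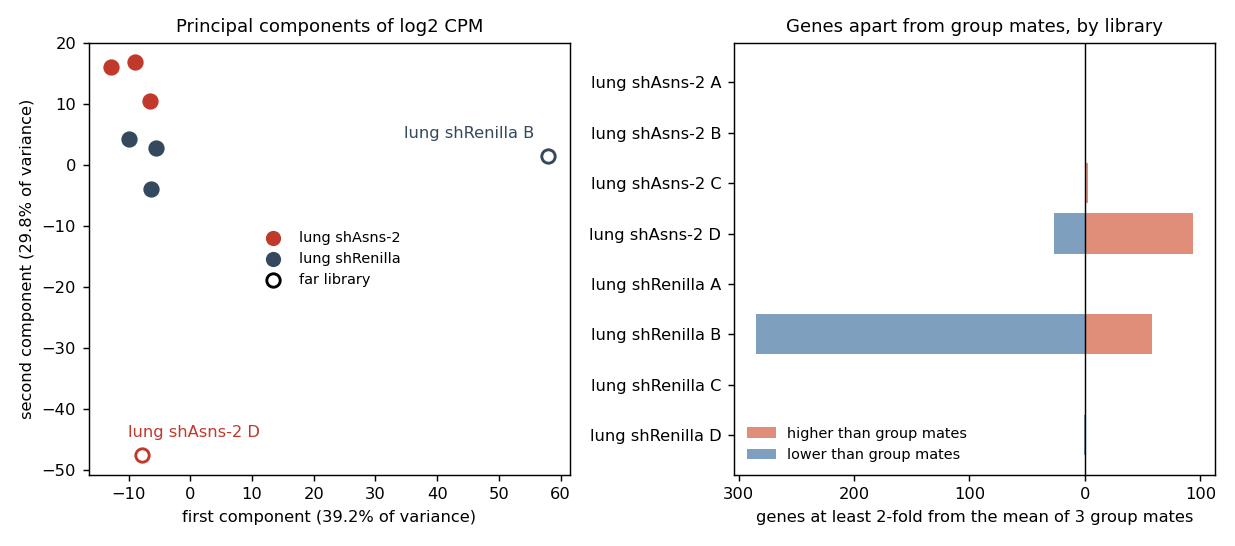
Left, the 8 lung libraries on the first and second principal component of log2 CPM (axes without units, share of variance in the labels). Right, bars give the number of genes at least 2-fold above (right of 0) or below (left of 0) the mean of the 3 group mates, of 7978 genes compared. Lung shRenilla B (343 genes) and lung shAsns-2 D (121 genes) lie apart, while the other 6 libraries have 0 to 3 such genes each.

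Different kinds of genes lay far off in the 2 libraries. In shAsns-2 D, nuclear and small nucleolar RNAs were high: Kcnq1ot1, a long antisense RNA, stood at 730.2 CPM against 135 to 149 CPM in shAsns-2 A to C, and Snord47, Snord22 and Snord12 at 33.2, 28.6 and 38.7 CPM against at most 12.7 CPM in its mates. The summed level of 13 listed nuclear and noncoding RNAs (12 in the file) was 20328 CPM in shAsns-2 D and 5657 to 8724 CPM in the other 7 libraries. Lamb3, a laminin chain, was also high there (34.1 CPM, mates 7.16 to 10.5 CPM). Genes low in shAsns-2 D included Cth, the cysteine-forming cystathionine gamma-lyase (5.61 CPM, mates 15.9 to 19.5 CPM), and Idh1, isocitrate dehydrogenase of the cytosol (58.7 CPM, mates 128 to 158 CPM).

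In shRenilla B, histone genes were low. Hist1h4d stood at 0.642 CPM against 18.5 to 24.6 CPM in its mates, and Hist1h2ae, Hist1h2ag, Hist1h2ad, Hist1h2ai and Hist1h2ab at 1.73 to 2.63 CPM against at least 9.42 CPM. Reads of such near-identical histone copies could be split or lost in counting, so single members are uncertain. The ribosomal RNA precursor Rn45s was low as well (266 CPM, mates 1440 to 2179 CPM). Genes of low GC content were high and genes of high GC content low: the median log2 difference from its mates was 0.41 in the bin of genes lowest in GC and -0.49 in the highest of 5 equal bins. For the shortest and longest bins it was -0.36 and 0.22. In shAsns-2 D the shortest and longest bins stood at -0.20 and 0.17. Across the 8 libraries the median log2 fold change of shAsns-2 over shRenilla ran from -0.09 in the lowest GC bin to 0.11 in the highest. Without the 2 libraries it ran from 0.04 to -0.02.

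The labelled cell type was checked on its keratins. Krt8 (138 to 286 CPM), Krt18 (174 to 422 CPM), Epcam (17.4 to 24.4 CPM) and Cdh1 (27.7 to 44.2 CPM), all epithelial, were present in all 8 libraries. Vim, a mesenchymal gene, was present as well and at a higher level (2930 to 3863 CPM). Some markers of blood cells were near 0: the 10 T and B cell genes summed to at most 0.158 CPM, with 6 of 10 at 0 in all 8 libraries, and Ptprc, the common leukocyte antigen, stood at 0.119 to 0.545 CPM. Others were not: Itgb2 of the pan-leukocyte list stood at 11.7 to 16.7 CPM and Cd53 at 0.712 to 2.98 CPM. S100a8 of the neutrophil list stood at 2.82 to 7.39 CPM. The lung surfactant genes Sftpc, Sftpb and Sftpd were at or under 0.071 CPM and Sftpa1 was at 0. Of the same lung epithelium list, Lamp3 stood at 34.3 to 52.2 CPM and Aqp5 at 6.54 to 21.8 CPM, and no other gene passed 0.209 CPM. For macrophages, Csf1r and the C1q chains did not pass 0.142 CPM. Their list summed to 27 to 32.3 CPM in shAsns-2 and 33.2 to 37.5 CPM in shRenilla, from Cd14 (13.2 to 20.2 CPM) and Mrc1 (10.3 to 18.1 CPM) for the most part. The fibroblast list summed to 24.4 to 27.8 CPM in shAsns-2 and 26.6 to 51.8 CPM in shRenilla, of which Pdgfra made 22.1 to 48.1 CPM, while Col1a1 and Pdgfrb did not pass 0.238 CPM. In these bulk libraries, fewer cells of a type and less RNA per cell cannot be told apart.

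With all 24 libraries in edgeR's quasi-likelihood fit, 0 of 12625 genes (0%) passed an adjusted p of 0.05 between lung shAsns-2 and lung shRenilla. At an unadjusted p under 0.05 there were 1068 genes (8.46%), 372 higher (2.95%) and 696 lower (5.51%) in shAsns-2. DESeq2 called 2, Gng5 higher and Slc4a4, a bicarbonate cotransporter, lower. Without shAsns-2 D and shRenilla B, edgeR called 4 of 12697 genes (0.0315%), 1 higher (0.00788%) and 3 lower (0.0236%), and 1435 (11.3%) had an unadjusted p under 0.05, 384 higher (3.02%) and 1051 lower (8.28%). Without shAsns-2 D alone it called 7, and without shRenilla B alone 0. DESeq2 called 69 without both. With offsets for GC content and length, edgeR called 2 with all libraries, Polr3g and Slc4a4, and 13 without the far ones.

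The count differed with the libraries fitted and their weights. When the 6 remaining lung libraries were fitted alone, 705 of 12189 genes were called (5.78%), 228 higher (1.87%) and 477 lower (3.91%). Of these 705, 615 had the same direction with all 24 libraries, 79 had all 4 shAsns-2 libraries beyond all 4 shRenilla libraries, and 21 differed at least 2-fold, with a median absolute log2 fold change of 0.37. This count fell to 6 without shAsns-2 B, 103 without shAsns-2 A, 111 without shRenilla A, 168 without shRenilla D and 371 without shRenilla C, and was 2335 without shAsns-2 C. Limma with library weights, which keeps all 24 libraries but counts the 2 far ones little, called 1548 genes (12.3%), 430 higher (3.41%) and 1118 lower (8.86%). It shared 641 with the 6-library fit, 90.9% of the 705 and 41.4% of the 1548, all in the same direction. Without the far libraries limma called 2123 genes (16.7%), 765 higher (6.03%) and 1358 lower (10.7%), and 1545 of these were also called with all libraries. Limma without library weights called 0 with all 24 libraries (1121 at an unadjusted p under 0.05), and edgeR on the 8 lung libraries alone also called 0 (523 at an unadjusted p under 0.05).

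Asns, the target, was lower with shAsns-2. Its levels were 44.5, 46.7, 51.3 and 35.8 CPM in shAsns-2 A to D and 69.1, 53.1, 70.2 and 62.0 CPM in shRenilla A to D. All 4 shAsns-2 libraries lay below all 4 shRenilla libraries. The means were 44.6 ± 6.51 and 63.6 ± 7.89 CPM (SD, n = 4 each), a log2 fold change of -0.51 ± 0.16 (SE), which edgeR did not call over all genes (adjusted p = 0.405). An exact two-sided permutation test of the 8 values gave p = 0.0286, the smallest that 4 against 4 allow. On CPM without TMM scaling, shRenilla B (48.2 CPM) fell below shAsns-2 C (50.2 CPM) and the exact p was 0.0571. The 6-library edgeR fit gave -0.50 (adjusted p = 0.00482) and limma with library weights an adjusted p of 0.00182. Adjusted p ran from 0.00182 to 0.955 over 18 alternatives. With offsets for GC content and length in edgeR the log2 fold change was -0.46 (adjusted p = 0.206). In tumor cells the same hairpin went with a log2 fold change of -1.18 (edgeR adjusted p = 0.00122). The difference between lung and tumor had an unadjusted p of 0.00642 and an adjusted p of 0.972 in edgeR. Hprt was 564, 661, 654 and 436 CPM in shAsns-2 A to D and 573, 799, 574 and 559 CPM in shRenilla A to D, with overlapping groups (log2 fold change -0.11 ± 0.16, exact permutation p = 0.543), and the mRNA level does not show the activity of the enzyme.

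Some genes separated the groups in all 8 libraries although none was called with all 24 in edgeR. Over all genes, 156 of 12625 (1.24%) had every shAsns-2 library above every shRenilla library and 244 (1.93%) had every one below. Of the higher ones with a mean log2 CPM of 3 or more, Gng5, a G protein gamma subunit, had the smallest p. It stood at 272, 293, 275 and 250.3 CPM in shAsns-2 A to D and 194, 184, 212 and 204 CPM in shRenilla A to D, a log2 fold change of 0.46 ± 0.10 (adjusted p = 0.189), and 0.46 without the far libraries (adjusted p = 0.0828). DESeq2 called it (adjusted p = 0.00787), and so did the 6-library fit (adjusted p = 0.00234).

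Mid1ip1, which activates acetyl-CoA carboxylase in fatty acid synthesis, was at 11.2, 10.9, 11.0 and 10.1 CPM in shAsns-2 A to D and 7.08, 6.16, 7.13 and 7.06 CPM in shRenilla A to D (log2 fold change 0.66 ± 0.16, 6-library adjusted p = 0.0049 in edgeR). Lrrc42 was at 37.0 to 37.6 CPM in shAsns-2 and 28.8 to 32 CPM in shRenilla. Med9, a subunit of the Mediator complex, stood at 19.3 to 26.2 and 11.2 to 18.6 CPM. The octamer-binding factor Pou2f1 stood at 39.3 to 49.8 and 31.9 to 37.0 CPM. Arpc1a, of the actin-nucleating Arp complex, stood at 62.9 to 72.9 and 53.6 to 57.2 CPM, and Tnrc6b, a partner of Argonaute, at 27.7 to 35.2 and 21.2 to 26.1 CPM. None of these ranges overlapped, and the log2 fold changes of these 6 genes were 0.30 to 0.66. The lung libraries labelled shAsns-1 were also higher than the same 4 shRenilla libraries in all 6. Gng5 and these genes were picked for lying above those very libraries. The shAsns-1 values and calls are therefore not independent of that choice, and the shared direction is a description only. Their log2 fold changes were 0.429 for Mid1ip1, 0.452 for Lrrc42, 0.524 for Med9, 0.335 for Pou2f1, 0.399 for Arpc1a and 0.475 for Tnrc6b. Gng5 stood at 0.475 there. EdgeR called Gng5, Lrrc42 and Arpc1a in that comparison (adjusted p = 0.0281, 0.0251 and 0.0459). Pck2, described below, went the other way there (-0.309).

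Among the lower genes whose libraries did not overlap, the 8 with the smallest p were Il7, Pros1, Cyp1b1, Rab32, Tmem50b, Nt5e, Ccl2 and Rnase4. Il7, a cytokine for lymphocytes, stood at 5.48, 7.00, 7.78 and 6.11 CPM in shAsns-2 A to D and 8.86, 15.6, 8.03 and 10.7 CPM in shRenilla A to D (log2 fold change -0.71 ± 0.16). shRenilla B was the highest library, and without the far libraries the log2 fold change was -0.45. The same held for Pros1, the anticoagulant protein S, at 15.6 to 21.6 CPM in shAsns-2 and 26.3, 49.7, 21.8 and 29.2 CPM in shRenilla A to D (-0.78 ± 0.17, then -0.56). Cyp1b1, a cytochrome P450, was at 12.9 to 16.8 against 22.1, 39.9, 20.5 and 28.9 CPM (-0.86 ± 0.20, then -0.66). Nt5e, the ectonucleotidase CD73 that makes adenosine, was at 259.9, 240.4, 278 and 318 CPM and 381, 558, 322 and 414 CPM (-0.61 ± 0.15, then -0.52). Rnase4, a secreted ribonuclease, was at 15.2 to 21.9 and 24.6 to 33.8 CPM. Rab32, a small GTPase of organelle traffic, was at 9.67 to 11.4 and 12.2 to 16.6 CPM, and Tmem50b at 17.7 to 20.8 and 24.1 to 27.9 CPM. For all 8 the direction was the same without the far libraries, with adjusted p of 0.137 to 0.244 in edgeR.

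The 4 genes that edgeR called without the far libraries differed in where the far libraries lay. Pvr, a nectin-like adhesion receptor that is a ligand of NK and T cell receptors, was at 17.5, 16.3, 18.5 and 31.9 CPM in shAsns-2 A to D and 32, 39.3, 28.2 and 31.2 CPM in shRenilla A to D. shAsns-2 A to C lay below all shRenilla libraries, and shAsns-2 D lay among them. The log2 fold change was -0.63 ± 0.17 with all libraries (adjusted p = 0.283) and -0.80 without the 2 (adjusted p = 0.0379). Tnfrsf11b, osteoprotegerin, a decoy receptor for RANKL, was at 1.33, 2.11, 1.66 and 4.62 CPM in shAsns-2 A to D and 5.45, 7.28, 4.12 and 5.48 CPM in shRenilla A to D, which gave -1.21 ± 0.31 and then -1.56 (adjusted p = 0.279 and 0.0379). Dram1, a p53-induced lysosomal membrane protein of autophagy, was at 10.2, 10.6, 11.2 and 14.9 CPM in shAsns-2 A to D and 15.4, 22.7, 14.3 and 17.1 CPM in shRenilla A to D, which gave -0.57 ± 0.13 and then -0.55 (adjusted p = 0.189 and 0.0483). Cldn9, a tight junction claudin and the one gene called higher, was low throughout, at 1.33, 2.73, 1.86 and 0.711 CPM in shAsns-2 A to D and 0.758, 0.770, 0.573 and 0.477 CPM in shRenilla A to D, which gave 1.37 ± 0.31 and then 1.72 (adjusted p = 0.189 and 0.0379). Without shAsns-2 D alone, these 4 were called together with Gng5 (higher), Has2, a hyaluronan synthase, and Clec5a, a myeloid lectin receptor (both lower). Has2, named after its values were seen, stood at 114, 141, 153 and 358 CPM in shAsns-2 A to D and 258, 361, 210.3 and 224 CPM in shRenilla A to D, the highest shAsns-2 value being that of library D. Slc4a4, also named after its values were seen, was at 4.09, 3.59, 3.48 and 4.19 CPM in shAsns-2 A to D and 6.86, 9.59, 5.70 and 6.73 CPM in shRenilla A to D, without overlap.

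**Figure D2:**
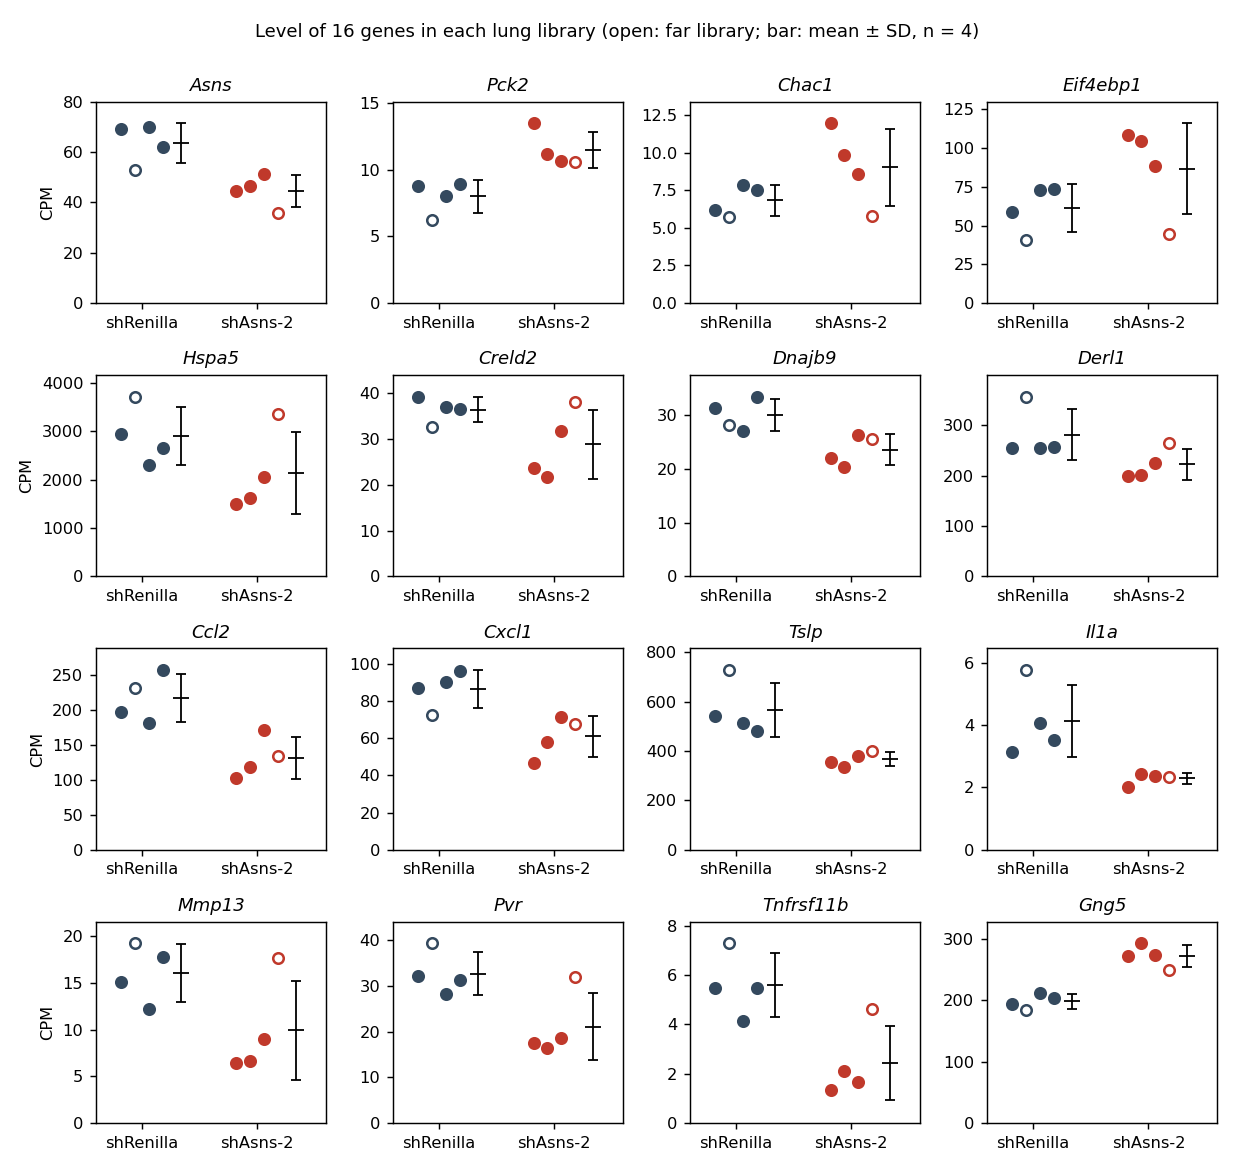
CPM of 16 genes in each lung library, 1 point per library from A to D, with shRenilla in dark blue and shAsns-2 in red, and the mean ± SD of 4 libraries as a bar. The y axes start at 0. Open points are shRenilla B and shAsns-2 D. For Pvr, Tnfrsf11b, Mmp13 and Hspa5 the open shAsns-2 point lies within the shRenilla range while the 3 filled red points lie below it, whereas for Asns, Ccl2, Tslp and Gng5 all 4 red points lie beyond the blue ones.

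Genes that ATF4 induces were called in both directions by the 6-library fit and by limma with library weights. EdgeR called 0 of them with all 24 libraries and 0 without the far ones. Of 38 listed, 35 were tested, and the median log2 fold change was 0.09 (0.10 without the far libraries, -0.01 over all genes tested). At an unadjusted p under 0.05, 3 were higher and 2 lower, beside 2.95% and 5.51% of all genes. The 6-library fit called 6 higher and 2 lower, and limma with library weights 7 and 4, where 1.87% and 3.91% of all genes were called by the former and 3.41% and 8.86% by the latter. Asns itself, the target, is on the list and is among the lower genes called by both. Pck2, the mitochondrial enzyme that makes phosphoenolpyruvate, was higher in every shAsns-2 library than in any shRenilla library.

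The promoters of Asns and Pck2 are printed because these 2 genes of the ATF4 list had the smallest p and went in opposite directions. Asns is also the target of shAsns-2, so a change through its promoter cannot be told apart from the knockdown. Each runs from 250 bases before to 50 after the start in RefSeq (GRCm38.p6), 5′ to 3′ on the gene's strand. Capitals mark TGATGNAA, the core letters of the element that ATF4 and C/EBP factors bind, on either strand. Asns lies at chr6:7693160-7693459, minus strand, and its match begins at position -23 from the start site on the gene's own strand. Pck2 lies at chr14:55540016-55540315, plus strand, and its match begins at -103 on the other strand.
Asns: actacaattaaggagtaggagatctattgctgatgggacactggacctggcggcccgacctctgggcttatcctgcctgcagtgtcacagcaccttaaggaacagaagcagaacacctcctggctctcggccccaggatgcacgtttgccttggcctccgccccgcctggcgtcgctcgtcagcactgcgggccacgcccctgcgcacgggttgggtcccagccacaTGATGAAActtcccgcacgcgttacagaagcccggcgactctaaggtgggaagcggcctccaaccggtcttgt
Pck2: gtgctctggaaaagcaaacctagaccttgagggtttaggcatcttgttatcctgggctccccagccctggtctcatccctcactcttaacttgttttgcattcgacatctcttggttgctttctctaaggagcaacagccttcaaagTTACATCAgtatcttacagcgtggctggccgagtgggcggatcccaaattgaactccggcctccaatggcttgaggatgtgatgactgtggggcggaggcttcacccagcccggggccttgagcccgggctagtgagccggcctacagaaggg
Of the 35 tested genes, 28 matched a RefSeq promoter by symbol, and 9 of these 28 genes held the letters (9 of 34 promoters, 26.5%, beside 3.97% of all 32851 promoters of this length). A match is a description, and a window without one says nothing about ATF4. The 9 were Asns, Atf3, Chac1, Herpud1, Jdp2, Nupr1, Pck2, Slc7a11 and Trib3. In the 24-library fit 6 of the 9 had a log2 fold change above 0 and 3 below, with a median of 0.26. Asns, the target of the hairpin, was among the 3 below.

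Pck2 was at 13.5, 11.2, 10.6 and 10.6 CPM in shAsns-2 A to D and 8.79, 6.26, 8.06 and 8.97 CPM in shRenilla A to D (log2 fold change 0.52 ± 0.15, edgeR adjusted p = 0.33). The 6-library fit called it (adjusted p = 0.0321), and in tumor cells its log2 fold change was 0.46. Eif4ebp1, an inhibitor of cap-dependent translation, was at 109, 105, 88.7 and 44.6 CPM in shAsns-2 A to D and 58.8, 40.7, 72.9 and 73.9 CPM in shRenilla A to D. shAsns-2 A to C were above every shRenilla library and shAsns-2 D was not, and the log2 fold change was 0.49 ± 0.21 with all libraries and 0.55 in the 6-library fit (adjusted p = 0.018). Chac1, which breaks down glutathione and was named after its values were seen, had the same shape, at 11.9, 9.81, 8.56 and 5.79 CPM in shAsns-2 A to D and 6.17, 5.74, 7.85 and 7.54 CPM in shRenilla A to D (6-library 0.48, adjusted p = 0.0482). Atf3, a stress-induced transcription factor, lay the other way, at 5.07, 4.83, 5.99 and 6.25 CPM in shAsns-2 A to D and 5.76, 6.74, 7.2 and 7.30 CPM in shRenilla A to D (log2 fold change -0.29 ± 0.12), with overlapping groups, and was called lower by limma with library weights (adjusted p = 0.00598) but not by the 6-library fit (adjusted p = 0.105). Atf4 mRNA was at 162, 148, 145 and 159 CPM in shAsns-2 A to D and 138, 123, 154 and 153 CPM in shRenilla A to D (log2 fold change 0.11 ± 0.12).

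Among enzymes of serine and one-carbon metabolism and around asparagine, 3 and 2 were called higher by the 6-library fit, beside 1.87% of all genes, and 0 were called by edgeR on all 24 libraries. Of 19 serine and one-carbon genes, 1 had an unadjusted p under 0.05 and a higher level and 0 a lower one, and the 3 called by the 6-library fit were all higher. Aldh1l2, the mitochondrial enzyme that oxidises formyl-tetrahydrofolate, was at 9.72, 7.18, 9.73 and 11.4 CPM in shAsns-2 A to D and 5.76, 10.7, 5.52 and 5.78 CPM in shRenilla A to D (log2 fold change 0.46 ± 0.18, 6-library 0.64, adjusted p = 0.0166). Psph, the last enzyme of serine synthesis, was at 118 to 167 CPM in shAsns-2 and 106 to 139 CPM in shRenilla (6-library 0.22, adjusted p = 0.0358). Of 20 genes around asparagine, aspartate and glutamine, Asns was the only one with an unadjusted p under 0.05, and the 6-library fit called 2 higher (1.87% of all genes) and 1 lower (3.91%). Gpt2, the mitochondrial alanine transaminase, was one of these, at 19.5, 18.1, 16.3 and 12.9 CPM in shAsns-2 A to D and 12.5, 16.8, 11.8 and 13.8 CPM in shRenilla A to D (6-library 0.50, adjusted p = 0.0129). Amino acid transporters had a median log2 fold change of -0.004 over 21 genes with all libraries and -0.14 without the far ones, where 5 were lower at an unadjusted p under 0.05 and 0 higher, beside 8.28% and 3.02% of all genes. In shAsns-2 D, 20 of the 21 lay above the mean of its mates, with a median log2 difference of 0.52. Slc7a6, the transporter of this list with the smallest p, was at 66.9, 70.8, 78.1 and 103 CPM in shAsns-2 A to D and 87.3, 135, 84.8 and 89.7 CPM in shRenilla A to D (log2 fold change -0.32 ± 0.14).

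Chaperones of the endoplasmic reticulum and genes of the unfolded protein response were lower with shAsns-2 in most members. Of 31 tested, 27 had a log2 fold change below 0, the median was -0.26, and 11 were lower and 0 higher at an unadjusted p under 0.05, beside 5.51% and 2.95% of all genes. Without the far libraries the median was -0.32, 29 of 31 were below 0, and 17 were lower at an unadjusted p under 0.05, beside 8.28% of all genes. The 6-library fit called 6 lower (3.91% of all genes) and limma with library weights 18 (8.86% of all genes), and neither called any higher. With adjusted p in the 24-library edgeR fit, 0 of 31 passed. In shAsns-2 D, 26 of the 31 lay above the mean of its mates, by a median log2 difference of 0.41.

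Hspa5 and Creld2 are shown with their promoters as examples. Both hold a full match to the endoplasmic reticulum stress element, spelled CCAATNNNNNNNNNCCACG and searched on both strands, and both had an unadjusted p under 0.05. Both were named after their values were seen. Dnajc3 (log2 fold change -0.28 ± 0.12) and Pdia6 (-0.38 ± 0.18) met the same 2 conditions, and their promoters are not printed. Windows, build and source are as for Asns, with the element in capitals. Hspa5 lies at chr2:34771840-34772139, plus strand, with the match beginning at position -65 on the gene's strand. Creld2 lies at chr15:88819396-88819695, plus strand, with the match beginning at -126 on the other strand.
Hspa5: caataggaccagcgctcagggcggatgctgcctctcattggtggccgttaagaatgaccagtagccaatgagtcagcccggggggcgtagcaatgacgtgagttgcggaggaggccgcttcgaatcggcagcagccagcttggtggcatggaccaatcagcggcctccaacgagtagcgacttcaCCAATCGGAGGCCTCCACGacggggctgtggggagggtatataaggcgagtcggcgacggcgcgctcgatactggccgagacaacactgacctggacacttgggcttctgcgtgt
Creld2: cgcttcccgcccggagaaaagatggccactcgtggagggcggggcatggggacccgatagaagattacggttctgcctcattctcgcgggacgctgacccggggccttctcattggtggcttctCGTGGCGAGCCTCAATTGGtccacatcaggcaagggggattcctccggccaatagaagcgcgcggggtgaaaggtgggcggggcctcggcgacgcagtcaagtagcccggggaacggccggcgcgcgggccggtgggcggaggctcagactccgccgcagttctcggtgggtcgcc
Of the 31 genes, 23 matched a RefSeq promoter, and 8 of these 23 held the element (8 of 25 promoters, 32%, beside 0.119% of all 32851). They were Calr, Canx, Creld2, Dnajc3, Hsp90b1, Hspa5, Pdia6 and Syvn1. In the 24-library fit 7 of the 8 had a log2 fold change below 0, with a median of -0.29 (-0.44 without the far libraries), and 4 had an unadjusted p under 0.05. Over the whole list 27 of 31 were below 0, with a median of -0.26 (-0.32 without the far libraries). A match is a description, and the part of the element in these values was not tested.

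Hspa5, the chaperone BiP, was at 1493, 1624, 2060 and 3351 CPM in shAsns-2 A to D and 2948, 3714, 2294 and 2660 CPM in shRenilla A to D. shAsns-2 A to C lay below all shRenilla libraries, while shAsns-2 D was above 3 of them. The log2 fold change was -0.45 ± 0.20 with all libraries (edgeR adjusted p = 0.541) and -0.61 without the 2. The 6-library fit did not call it (adjusted p = 0.0594), and limma with library weights did (adjusted p = 0.00421). Creld2, a secreted disulfide-exchange factor, was at 23.8, 21.7, 31.7 and 38.1 CPM in shAsns-2 A to D and 39.2, 32.7, 37.0 and 36.6 CPM in shRenilla A to D (-0.34 ± 0.16, 6-library -0.55, adjusted p = 0.0409). In this gene too the far library of the shAsns-2 group lay within the control range.

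Derl1, a channel component for export of misfolded proteins, had the smallest p of the list, at 198, 201, 224 and 264 CPM in shAsns-2 A to D and 254, 356, 255 and 257 CPM in shRenilla A to D (-0.34 ± 0.11, 6-library -0.30, adjusted p = 0.0138). Dnajb9, a cochaperone of Hspa5 and also named after its values were seen, did not overlap between groups, at 22.0, 20.4, 26.4 and 25.5 CPM in shAsns-2 A to D and 31.4, 28.2, 27.1 and 33.5 CPM in shRenilla A to D (-0.35 ± 0.14, 6-library adjusted p = 0.0398). Dnajb11, another cochaperone, was at 82.0, 88.7, 129 and 144 CPM in shAsns-2 A to D and 136 to 152 CPM in shRenilla, with shAsns-2 A and B furthest below. It was called by limma with library weights (adjusted p = 0.00191) and not by the 6-library fit (adjusted p = 0.112). Fkbp14, a prolyl isomerase, was at 5.94 to 8.78 and 7.85 to 12.8 CPM, and Hspa13 at 165 to 198 and 175 to 331 CPM. The disulfide isomerase Pdia4, named after its values were seen, was at 111, 111, 156 and 184 CPM in shAsns-2 A to D and 202, 229, 163 and 189 CPM in shRenilla A to D. Sil1, the nucleotide exchange factor of Hspa5 and named likewise, was at 5.48, 5.26, 7.06 and 9.88 CPM in shAsns-2 A to D and 9.77, 7.28, 8.57 and 10.3 CPM in shRenilla A to D (6-library -0.69, adjusted p = 0.0113). In tumor cells the same list had a median of 0.003 with shAsns-2, with 2 higher and 0 lower at an unadjusted p under 0.05, beside 4.02% and 3.05% of all genes there.

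Cytokines and chemokines lay below the controls in most members, and 0 of 40 passed the adjusted threshold in edgeR with or without the far libraries. Of 40 tested, 33 had a log2 fold change below 0, with a median of -0.30 (-0.39 without the far libraries). At an unadjusted p under 0.05, 15 were lower and 0 higher, beside 5.51% and 2.95% of all genes, and in 5 of the 40 all 4 shAsns-2 libraries lay below all 4 shRenilla libraries, beside 1.93% of all genes. The 6-library fit called 8 lower (3.91% of all genes) and limma with library weights 17 (8.86% of all genes), and neither called any higher. Macrophage markers summed to 27 to 32.3 CPM in shAsns-2 and 33.2 to 37.5 CPM in shRenilla, without overlap, and 4 of the 4 tested had a log2 fold change below 0. Pan-leukocyte markers summed to 14.1 to 17.6 and 14.5 to 19.8 CPM, with overlap, and 4 of 4 tested were below 0. The part of either in the cytokine values was not tested.

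Ccl2, which attracts monocytes, was at 102, 118, 171 and 134 CPM in shAsns-2 A to D and 196, 231, 180.3 and 256 CPM in shRenilla A to D. The groups did not overlap, and the log2 fold change was -0.72 ± 0.18 (edgeR adjusted p = 0.279) and -0.70 without the far libraries. Cxcl1, which attracts neutrophils, was at 46.8, 58.3, 71.7 and 68.0 CPM in shAsns-2 A to D and 87.4, 72.7, 90.4 and 96.6 CPM in shRenilla A to D, again without overlap (-0.50 ± 0.14, then -0.63, edgeR adjusted p = 0.301 and 0.124). The 6-library fit did not call Cxcl1 (adjusted p = 0.0522) and limma with library weights did (adjusted p = 0.000492). Il1a, an alarm cytokine, was at 2.03, 2.42, 2.38 and 2.35 CPM in shAsns-2 A to D and 3.14, 5.77, 4.09 and 3.52 CPM in shRenilla A to D. Tslp, an epithelial cytokine named after its values were seen, was at 355, 333, 380.0 and 398 CPM in shAsns-2 A to D and 542, 728, 515 and 482 CPM in shRenilla A to D. Both separated the groups in all 8 libraries, and the 6-library fit called both (-0.66, adjusted p = 0.0281 and -0.53, adjusted p = 0.00234). Cxcl5, another neutrophil attractant, was at 65.5, 80.3, 105 and 68.7 CPM in shAsns-2 A to D and 94.9, 177, 112 and 131 CPM in shRenilla A to D with a highest value in shRenilla B, so its log2 fold change was -0.69 ± 0.17 with all libraries and -0.43 without the far ones.

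Icam1 and Ptgs2 were also named after their values were seen. Icam1, the leukocyte adhesion receptor, was at 7.13, 6.87, 9.28 and 13.5 CPM in shAsns-2 A to D and 13.1, 13.9, 11.7 and 15.8 CPM in shRenilla A to D (log2 fold change -0.57 ± 0.19, 6-library -0.81, adjusted p = 0.0113). Ptgs2, the prostaglandin-forming cyclooxygenase, was at 446, 447, 580.1 and 1074 CPM in shAsns-2 A to D and 821, 1596, 649 and 772 CPM in shRenilla A to D. In shAsns-2 D it exceeded 3 shRenilla libraries, and shRenilla B was the highest of all. Its 6-library log2 fold change was -0.61 (adjusted p = 0.0504). In tumor cells, the list had a median of 0.03 with shAsns-2, with 2 higher and 1 lower at an unadjusted p under 0.05 (4.02% and 3.05% of all genes).

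Lysosomal and autophagy genes were lower in part. Of 32 lysosome and autophagy genes, 8 were lower and 0 higher at an unadjusted p under 0.05 (5.51% and 2.95% of all genes), and the median was -0.18 (-0.29 without the far libraries). The 6-library fit called 12 lower and 1 higher (3.91% and 1.87% of all genes), the latter being Bnip3 (named after its values were seen, 0.33, adjusted p = 0.00939). Lamp1, a major lysosomal membrane protein, did not overlap, at 423, 397, 508 and 514 CPM in shAsns-2 A to D and 572, 609, 537 and 568 CPM in shRenilla A to D (-0.31 ± 0.12, 6-library adjusted p = 0.0401). Atg12, a conjugation factor of autophagy, did not overlap either, at 51.1 to 63.3 and 63.5 to 80.3 CPM (-0.28 ± 0.09). Lamp2 was at 269.9 to 343 and 316 to 587 CPM, with overlap. The cathepsins Ctsd and Ctsz were named after their values were seen, and in both shRenilla B was the lowest library of its group. Ctsz was at 79.7, 76.1, 104 and 119 CPM in shAsns-2 A to D and 129, 96.8, 127 and 140.3 CPM in shRenilla A to D (6-library -0.61, adjusted p = 0.0254). Ctsd was at 36.7, 33.6, 41.8 and 58.7 CPM in shAsns-2 A to D and 56.3, 31.9, 52.8 and 55.2 CPM in shRenilla A to D. For Ctsd, shRenilla B lay below every shAsns-2 library and shAsns-2 D was the highest of all, so the log2 fold change was -0.20 ± 0.20 with all libraries and -0.56 in the 6-library fit (adjusted p = 0.00482).

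Of 21 metalloproteinases and inhibitors, 8 were lower and 0 higher at an unadjusted p under 0.05 (5.51% and 2.95% of all genes), with a median of -0.35 (-0.37 without the far libraries), and the 6-library fit called 5, all lower (3.91% of all genes). Mmp13, a collagenase, was at 6.40, 6.63, 8.95 and 17.7 CPM in shAsns-2 A to D and 15.1, 19.3, 12.2 and 17.8 CPM in shRenilla A to D (-0.71 ± 0.27, 6-library -1.05, adjusted p = 0.0115). shAsns-2 D lay within the control range. Mmp9, a gelatinase named after its values were seen, was at 14.5, 13.6, 17.3 and 38 CPM in shAsns-2 A to D and 22.8, 32.8, 21.3 and 25.1 CPM in shRenilla A to D (-0.29 ± 0.24, 6-library -0.62, adjusted p = 0.00787). Mmp3 and Mmp10, stromelysins, were at 379.7 to 569 and 22.3 to 36.3 CPM in shAsns-2 and 504 to 845 and 34.1 to 53.9 CPM in shRenilla. Reck, a membrane-bound inhibitor of these proteases, was at 4.28, 3.90, 4.10 and 6.25 CPM in shAsns-2 A to D and 6.63, 8.76, 5.12 and 5.81 CPM in shRenilla A to D (-0.51 ± 0.18, 6-library adjusted p = 0.0342).

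Of 26 receptor tyrosine kinases and ligands, 6 were lower and 1 higher at an unadjusted p under 0.05 (5.51% and 2.95% of all genes), and the 6-library fit called 6 lower and 1 higher (3.91% and 1.87% of all genes), with Btc, Pdgfc and Vegfc lower by both rules. The higher one was Macc1, a regulator of Met named after its values were seen, at 13.5, 15.5, 13.1 and 12.0 CPM in shAsns-2 A to D and 9.92, 12.0, 9.60 and 9.39 CPM in shRenilla A to D, with shAsns-2 D and shRenilla B at nearly the same level (0.40 ± 0.16, 6-library 0.54, adjusted p = 0.0094). Btc, betacellulin, an EGF receptor ligand, was at 11.0, 12.9, 13.7 and 12.7 CPM in shAsns-2 A to D and 17.1, 26.8, 16.5 and 14.7 CPM in shRenilla A to D (-0.58 ± 0.15, 6-library -0.36, adjusted p = 0.0497). The highest library of shAsns-2 lay below the lowest of shRenilla. Areg, amphiregulin, another such ligand named after its values were seen, was at 60.3, 68.4, 92.3 and 142 CPM in shAsns-2 A to D and 133, 119.7, 125 and 115 CPM in shRenilla A to D (6-library -0.76, adjusted p = 0.0455). Pdgfc, a ligand of PDGF receptors, was at 12.5, 13.4, 13.7 and 18.7 CPM in shAsns-2 A to D and 17.6, 34.6, 19.2 and 21.3 CPM in shRenilla A to D. Vegfc, a ligand of VEGF receptors, was at 13.3, 13.4, 15.9 and 23.3 CPM in shAsns-2 A to D and 18.0, 33.2, 19.8 and 21.7 CPM in shRenilla A to D. The 6-library fit called both lower (adjusted p = 0.00769 and 0.0153). Pdgfra was at 22.1 to 24.9 CPM in shAsns-2 and 28.2, 48.1, 24.7 and 30.9 CPM in shRenilla A to D, with the highest value in shRenilla B.

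Serpins gave 5 lower and 0 higher of 15 at an unadjusted p under 0.05 (5.51% and 2.95% of all genes), and 3 lower of 16 without the far libraries (8.28% of all genes). Serpine2, an inhibitor of thrombin and plasminogen activators, did not overlap, at 301, 293, 405 and 396 CPM in shAsns-2 A to D and 579.5, 674, 467 and 668 CPM in shRenilla A to D (-0.78 ± 0.24, 6-library -0.79, adjusted p = 0.057). Serpinb6b, at 19.6 to 28.4 and 28.6 to 37.2 CPM, did not overlap either (-0.41 ± 0.12) and was lower with shAsns-2 in tumor cells as well (-0.63, edgeR adjusted p = 0.0408). In the MHC class I list, 0 of 17 genes were lower at an unadjusted p under 0.05 with all libraries and 6 without the far ones (5.51% and 8.28% of all genes), and the median was -0.20 and -0.24. H2-K1, a class I heavy chain, was at 115, 114, 139 and 188 CPM in shAsns-2 A to D and 165, 168, 157 and 175 CPM in shRenilla A to D (6-library -0.44, adjusted p = 0.0121). Class I heavy chain genes are alike in sequence, so their counts are uncertain.

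Several lists of matrix and adhesion genes depended on the far libraries. Mesenchymal genes had a median of -0.07 with all libraries and -0.25 without the 2, TGF-beta and YAP targets -0.05 and -0.26, integrins and laminins -0.01 and -0.25, and collagens -0.01 and -0.20. Lower members at an unadjusted p under 0.05 went from 1 to 8 of 48 and 50 mesenchymal genes, from 2 to 8 of 32 TGF-beta and YAP targets, and from 2 to 8 of 20 integrins and laminins, while collagens went from 3 of 16 to 2 of 17. Over all genes that share went from 5.51% to 8.28%. In shAsns-2 D, 19 of the 20 integrin and laminin genes, 28 of the 32 TGF-beta and YAP targets and 15 of the 16 collagens lay above the mean of its mates, beside 53% of all genes tested. Ankrd1, a YAP target, was at 200.1, 216, 254 and 238 CPM in shAsns-2 A to D and 255, 274, 265 and 296 CPM in shRenilla A to D without overlap (-0.26 ± 0.10, then -0.29). Tgfbr1, the type I TGF-beta receptor, was at 133 to 139 CPM in shAsns-2 and 149, 239, 144 and 145 CPM in shRenilla A to D, also without overlap but highest in shRenilla B (-0.32 ± 0.13, then -0.12). Itgb3, the integrin beta chain of vitronectin receptors, was at 2.15, 2.17, 1.56 and 2.95 CPM in shAsns-2 A to D and 3.26, 3.37, 3.19 and 2.80 CPM in shRenilla A to D (-0.52 ± 0.19, 6-library -0.65, adjusted p = 0.0385). Itgb5, another such chain, was at 11.5, 12.0, 13.4 and 18.9 CPM in shAsns-2 A to D and 16.2 to 18.2 CPM in shRenilla, with shAsns-2 A to C below all 4 controls and shAsns-2 D above them (6-library -0.52, adjusted p = 0.00928). Fibronectin, Fn1, had its highest value of the 8 in shAsns-2 D, at 748, 759.6, 842 and 1544 CPM in shAsns-2 A to D and 1113, 1459, 993 and 1190 CPM in shRenilla A to D (-0.29 ± 0.19, 6-library -0.49, adjusted p = 0.0049). The collagen Col12a1 was at 3.80, 3.07, 4.00 and 7.00 CPM in shAsns-2 A to D and 6.02, 9.01, 5.23 and 5.96 CPM in shRenilla A to D (-0.56 ± 0.24, 6-library -0.67, adjusted p = 0.0162). Col8a1, Col4a5 and the integrin chain Itgav were highest in shRenilla B: Itgav was at 425, 860.2, 373 and 411 CPM in shRenilla A to D and 391 to 419 CPM in shAsns-2, so the log2 fold change was -0.37 ± 0.17 with all libraries and -0.04 without the far ones.

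**Figure D3:**
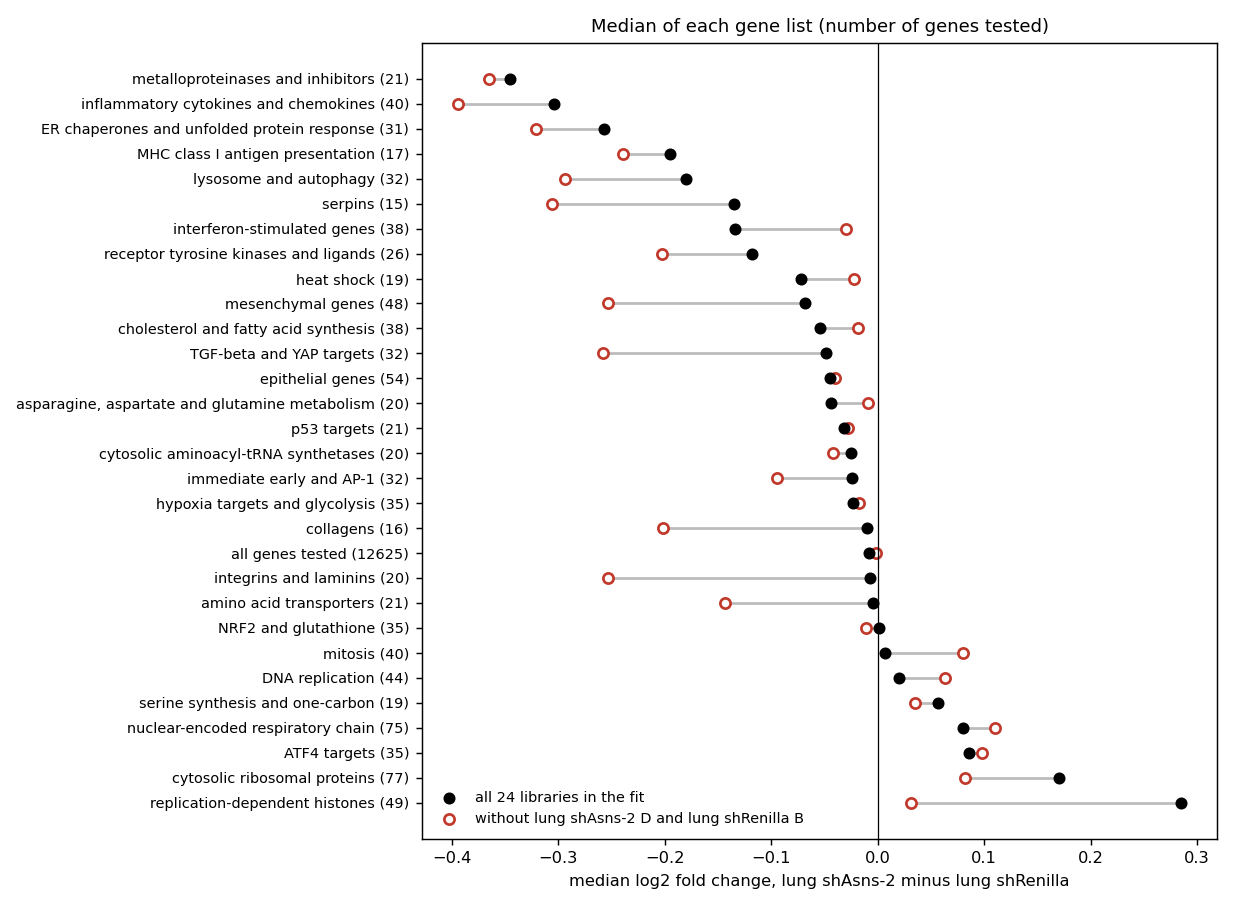
Median log2 fold change of lung shAsns-2 over lung shRenilla for each of 29 gene lists and for all genes tested, with the number of genes tested in brackets. Filled points are the fit with all 24 libraries and open red points the fit without lung shAsns-2 D and lung shRenilla B. Inflammatory, endoplasmic reticulum, metalloproteinase and lysosome lists lie left of 0 in both fits, while histones go from 0.29 to 0.03 and integrins and laminins from -0.01 to -0.25.

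Genes of protein synthesis, respiration and the cell cycle had medians within 0.11 of 0 once the far libraries were left out. Most members still lay above 0 in that fit, apart from histones (26 of 49). Above 0 were 69 of 77 ribosomal protein, 64 of 75 respiratory chain, 34 of 40 mitosis and 35 of 44 DNA replication genes. Over all genes 6295 of 12697 were. Ribosomal protein genes had a median of 0.17, with 76 of 77 above 0, and 0.08 without the far libraries. At an unadjusted p under 0.05 with all libraries, 1 of them was higher and 0 lower, beside 2.95% and 5.51% of all genes. Their mean log2 CPM was 7.38 in shRenilla B and 8.07 to 8.15 in its mates. Histone genes had a median of 0.29 with all libraries and 0.03 without the 2. At an unadjusted p under 0.05, 5 of 49 were higher and 0 lower with all libraries (2.95% and 5.51% of all genes). Without the 2 the counts were again 5 and 0 (3.02% and 8.28% of all genes). In shRenilla B, 2 of the 49 were above the mean of its mates, with a median log2 difference of -1.33. Subunits of the respiratory chain had medians of 0.08 and 0.11, and in shAsns-2 D 0 of 75 were above the mean of its mates. In either fit 0 of the 75 had an unadjusted p under 0.05. Without the far libraries, all 3 shAsns-2 libraries lay above all 3 shRenilla libraries in 42 of them and below in 5. Over all genes 13.1% and 14.3% did. Mitosis genes had medians of 0.01 and 0.08 and DNA replication genes 0.02 and 0.06. At an unadjusted p under 0.05, 0 of 40 mitosis genes passed with all libraries (8.46% of all genes), and 4 were higher without the 2 (3.02% of all genes).

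The lung comparison was set against tumor cells with the same hairpin, which share no library with it. For the difference between the lung and the tumor effect of shAsns-2, edgeR called 0 of 12625 genes (0%), and 599 (4.74%) had an unadjusted p under 0.05, 121 with a higher (0.958%) and 478 with a lower value in lung (3.79%). DESeq2 called 1. Without the far libraries edgeR also called 0, and 880 (6.93%) had an unadjusted p under 0.05, 137 higher (1.08%) and 743 lower in lung (5.85%). Limma with library weights called 0. Across genes, the log2 fold changes of both sites had a Pearson r of 0.188 over 12625 genes and 0.215 over 12697 without the far libraries, as a description, since genes are not independent replicates. In tumor cells edgeR called 8 genes with shAsns-2 (0.0634%), 5 higher (0.0396%) and 3 lower (0.0238%), and 893 (7.07%) had an unadjusted p under 0.05.

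Cholesterol and fatty acid genes and hypoxia targets had different counts at the 2 sites. In tumor cells, 12 of 38 cholesterol and fatty acid genes were higher with shAsns-2 at an unadjusted p under 0.05 and 0 lower (4.02% and 3.05% of all genes), with a median of 0.22. In lung cells 0 were higher and 4 lower (2.95% and 5.51% of all genes), with a median of -0.05. The difference itself had an unadjusted p under 0.05 in 9 genes, all lower in lung (3.79% of all genes). Elovl6, a fatty acid elongase, was at 103, 104, 105 and 106 CPM in shAsns-2 A to D and 140.1, 136, 124 and 117 CPM in shRenilla A to D in lung, without overlap (-0.31 ± 0.09, 6-library adjusted p = 0.0254), and its log2 fold change in tumor cells was -0.01. Sqle, squalene epoxidase, was at 74.4, 81.8, 88.0 and 114 CPM in shAsns-2 A to D and 110.0, 155, 99.0 and 101 CPM in shRenilla A to D in lung (-0.38 ± 0.15), beside a log2 fold change of 0.20 in tumor cells. For hypoxia targets and glycolysis the tumor counts were 11 higher and 0 lower of 35 (4.02% and 3.05% of all genes). The lung counts were 0 and 5 (2.95% and 5.51% of all genes), and the difference was lower in lung in 9 (3.79% of all genes). The medians were 0.15 in tumor and -0.02 in lung cells. In lung the 6-library fit called genes in both directions, 3 higher and 4 lower of 36 (1.87% and 3.91% of all genes). Adm, adrenomedullin, a hypoxia-induced peptide, was at 9.91, 9.97, 14.2 and 10.9 CPM in shAsns-2 A to D and 17.6, 15.5, 13.9 and 19.7 CPM in shRenilla A to D in lung (-0.57 ± 0.22), beside 0.59 in tumor cells. Car12, a hypoxia-induced carbonic anhydrase, was at 61.5, 61.9, 73.6 and 88.8 CPM in shAsns-2 A to D and 78.3 to 96.5 CPM in shRenilla (6-library -0.47, adjusted p = 0.0113). ATF4 targets had medians of 0.09 in lung and 0.12 in tumor cells. In tumor cells 7 were higher and 1 lower at an unadjusted p under 0.05 (4.02% and 3.05% of all genes). The log2 fold change of Chac1 was 0.41 in lung and 0.54 in tumor cells, and that of Pck2 0.52 and 0.46.

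**Figure D4:**
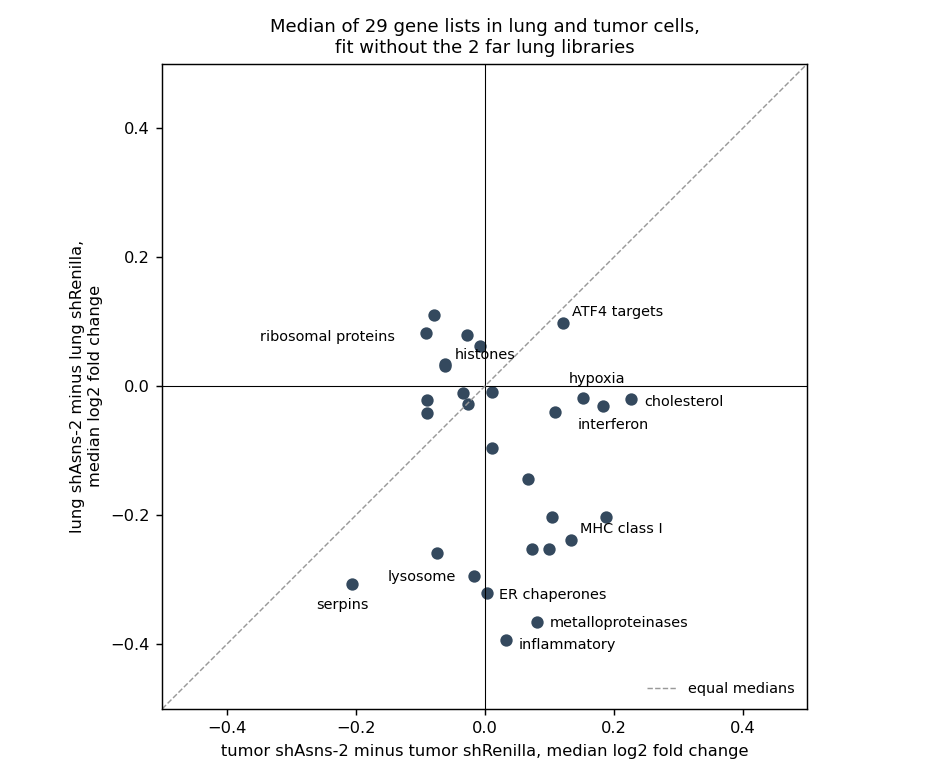
Each point is the median log2 fold change of 1 of 29 gene lists, for shAsns-2 over shRenilla in tumor cells (x axis) and in lung cells (y axis), from the fit without the 2 far lung libraries. The dashed line marks equal medians. Inflammatory, metalloproteinase, endoplasmic reticulum and lysosome lists lie near 0 in tumor cells (-0.02 to 0.08) and between -0.39 and -0.29 in lung cells, and ATF4 targets lie close to the line (0.12 and 0.10).

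The lung libraries labelled shAsns-1, the other hairpin against Asns, are compared with the same 4 shRenilla libraries, so their values are not independent of those above. In that comparison edgeR called 26 genes (0.206%), 9 higher (0.0713%) and 17 lower (0.135%), and 1665 (13.2%) had an unadjusted p under 0.05, 778 higher (6.16%) and 887 lower (7.03%). The endoplasmic reticulum list had a median of -0.20 under the label shAsns-1 and -0.26 with shAsns-2, the cytokine list 0.12 and -0.30, the lysosome list -0.05 and -0.18, and mesenchymal genes 0.39 and -0.07. Asns itself had a log2 fold change of 1.61 in the libraries labelled shAsns-1 (edgeR adjusted p = 2.62e-06), higher than in shRenilla and against the label of a knockdown, beside -0.51 with shAsns-2.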

How the data were processed

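Gene expression was measured by RNA-seq in 24 libraries, 4 in each of 6 groups, of which the 8 lung shAsns-2 and lung shRenilla libraries are compared. The authors deposited raw counts per gene symbol (23478 genes) made with Bowtie2 and HTSeq on mm10, per the submitters' processing notes; versions, annotation and strand setting are not given in the sources used here, so overlapping and antisense genes cannot be told apart. The lung libraries held 25912778 to 34342195 counts.

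The deposited counts were fitted with edgeR 4.0.16 (R 4.3.3): filterByExpr, TMM scaling, quasi-likelihood F test, 1 coefficient per group over 24 libraries, Benjamini-Hochberg adjustment over all genes tested, threshold 0.05. The fit was repeated without lung shAsns-2 D and lung shRenilla B, and on the 6 remaining lung libraries alone. Alternatives were DESeq2 1.42.0, limma 3.58.1 voom with and without library weights, DESeq2 size factors, no filter, only the compared groups, thinned counts, a replicate block, GC and length offsets, and leaving out each library. CPM are TMM-scaled, and log2 CPM used a prior count of 2. Scripts were tested on simulated data. No pair of libraries agreed within counting noise.

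The members and gene lists were chosen with earlier results of these data known. Genes were named by rule: Asns and Hprt; genes called in either fit; the 8 of smallest p in each direction whose libraries do not overlap, with a mean log2 CPM of 3 or more; up to 4 of smallest p per list; and the 8 farthest in each direction in each far library. Genes said to be named after their values were seen, and marker genes, fall outside this rule, as do Atf4, the genes called only in an alternative and those of the promoter match. GENCODE M21 matched 11901 genes (94.3%) for GC content and length. Promoters are RefSeq, GRCm38.p6. Letters A to D did not pair libraries across groups. A few genes of the named set are not reported here.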

Additional observations from a re-analysis of the deposited data

Results flagged for a closer look

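Within a group of 4 libraries, a library was picked out where its gap to the nearest mate as a share of the group's range exceeded Dixon's critical value for 4 samples. Of 110 groups tested over 55 measures, 16 had such a library. All 16 were lung shAsns-2 D or lung shRenilla B. Both were known to lie far from their mates before these measures were taken, and the measures share libraries and genes. So the number of groups picked out is a description, with no weight against the 1 in 20 groups that chance picks among independent measures.

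The first 2 values restate the separation described with the libraries: lung shRenilla B stood at 58 on the first component (mates -10 to -5.6) and lung shAsns-2 D at -47.6 on the second (mates 10.5 to 16.8). Among single genes, Hprt was 799 CPM in shRenilla B against 559 to 574 CPM, Mid1ip1 6.16 CPM in shRenilla B against 7.06 to 7.13 CPM, and Pvr 31.9 CPM in shAsns-2 D against 16.3 to 18.5 CPM.

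Mean log2 CPM over gene lists gave the others. In shAsns-2 D, mesenchymal genes were at 3.29 (mates 2.73 to 2.81), integrins and laminins at 4.79 (4 to 4.13) and receptor tyrosine kinases and ligands at 4.13 (3.69 to 3.75), all above the mates. Below the mates in shAsns-2 D were the respiratory chain at 7.3 (7.71 to 7.75), ribosomal proteins at 7.96 (8.18 to 8.22), mitosis at 7.49 (7.76 to 7.78), DNA replication at 6.2 (6.47 to 6.5) and NRF2 and glutathione genes at 5.41 (5.56 to 5.57). In shRenilla B, histones were at -0.818 (0.797 to 0.846), ribosomal proteins at 7.38 (8.07 to 8.15) and aminoacyl-tRNA synthetases at 6.98 (7.19 to 7.21), all below the mates.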

How the results depend on the processing

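The count of called genes changed with the fit, and the cause was not tested. With all libraries edgeR called 0, DESeq2 2, limma with library weights 1548, limma without weights 0, only the 8 compared libraries 0, the GC and length offsets (added after seeing the data) 2, and the fit without the far libraries 4. Leaving out each library gave 0 to 7, the 7 without shAsns-2 D. Without the far libraries (4), the counts were DESeq2 69, limma with library weights 2123, limma without weights 0, no filter 10, only the compared groups 705, thinned counts 0, the offsets 13, and 0 to 58 on leaving out a further library: 58 without shAsns-2 C, 1 without shAsns-2 A and 0 without any other. The replicate block called 0 genes with all libraries and 0 without the far ones. The letters did not pair libraries (correlations of deviations -0.088 to 0.019). For the 6 libraries alone (705), alternatives added after seeing the data gave 2400 with limma library weights, 1614 with no filter, 1145 with the offsets (584 higher and 561 lower, against 228 and 477), and 6 to 2335 on leaving out a library. DESeq2 gave 1001, limma without weights 740 and DESeq2 size factors 727. For the lung minus tumor difference (0), DESeq2 called 1 and leaving out a library 0 to 1, the 1 without lung shRenilla B. Asns kept its direction in all 18 alternatives and passed with limma library weights (-0.515, adjusted p = 0.00182). Of 146 named genes, 7 changed sign somewhere. With limma library weights and without the far libraries in turn, Hprt was 0.127 and 0.14, Ppat 0.039 and 0.052, Gfpt1 0.002 and 0.006, Dars 0.045 and 0.055, Txnrd1 -0.019 and -0.011, Msh6 0.042 and 0.042, and Hsp90aa1 0.031 and 0.045. On leaving out each library, Hprt ran from -0.175 to 0.041 (without shAsns-2 D), Gfpt1 from -0.317 to 0.021 and Hsp90aa1 from -0.196 to 0.012, the last 2 highest without shRenilla B. With 4 libraries a group and 2 of them far off, a gene that did not pass is not shown to be equal between groups.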

Other observations

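Further gene groups had median log2 fold changes of -0.13 to 0.001, beside -0.01 for all genes. Epithelial genes gave 4 higher and 1 lower of 54 at an unadjusted p under 0.05 in the 24-library edgeR fit, where 2.95% and 5.51% of all genes did (median log2 fold change -0.05). Without the far libraries they gave 3 higher and 4 lower, beside 3.02% and 8.28%. Pkp1, a desmosomal plakophilin, was higher in every shAsns-2 library, at 1.24, 1.27, 1.17 and 1.53 CPM in shAsns-2 A to D and 0.606, 1.09, 0.824 and 0.805 CPM in shRenilla A to D (0.63 ± 0.26), while F11r, a tight junction adhesion molecule, was at 45.4, 46.7, 65.1 and 68.9 CPM in shAsns-2 A to D and 83.6, 57.3, 71.9 and 73.5 CPM in shRenilla A to D (-0.34 ± 0.15, limma with library weights adjusted p = 0.00176). Among p53 targets 0 were higher and 1 lower of 21 with all libraries, beside 2.95% and 5.51% of all genes. The death receptor Fas stood at 9.63, 10.7, 16.4 and 18.5 CPM in shAsns-2 A to D and 17.9, 27.6, 20.5 and 26.7 CPM in shRenilla A to D. shAsns-2 A and B lay lowest, shAsns-2 D overlapped with shRenilla A, and the log2 fold change was -0.75 ± 0.22 (limma with library weights adjusted p = 0.00314, 6-library edgeR adjusted p = 0.0912).

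At an unadjusted p under 0.05, interferon-stimulated genes gave 0 higher and 2 lower of 38, beside 2.95% and 5.51% of all genes. Their median was -0.13, and -0.03 without the far libraries. Gbp3, a guanylate-binding protein, was at 4.72, 5.48, 5.50 and 3.80 CPM in shAsns-2 A to D and 5.80, 10.3, 5.84 and 7.27 CPM in shRenilla A to D, without overlap but highest in shRenilla B (-0.59 ± 0.23, then -0.27). Heat shock genes gave 0 higher and 2 lower of 19 with all libraries (2.95% and 5.51% of all genes). Without the far ones they gave 0 and 0 (3.02% and 8.28% of all genes). Hsph1, a chaperone of the Hsp70 superfamily, was at 476, 442, 412 and 353 CPM in shAsns-2 A to D and 511, 621, 460.1 and 464 CPM in shRenilla A to D (-0.29 ± 0.11, then -0.11). Immediate early and AP-1 genes gave 0 higher and 2 lower of 32, antioxidant NRF2 and glutathione genes 0 higher and 0 lower of 35, and aminoacyl-tRNA synthetases 0 higher and 0 lower of 20, beside 2.95% and 5.51% of all genes. Their medians were -0.02, 0.001 and -0.03. Summed markers of other cell types were 7.26 to 8.61 CPM in shAsns-2 and 3.85 to 8.03 CPM in shRenilla for endothelium, 2.91 to 6.40 and 4.14 to 7.45 CPM for neutrophils, 42.6 to 66.7 and 52.9 to 63.0 CPM for lung epithelium, 36.7 to 48.7 and 23.4 to 44.0 CPM for muscle, and at most 1.37 CPM for adipocytes.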
